A study of Homo sapiens with 9 samples.

Results

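Iron storage, uptake and export and the making and breakdown of heme are described here through 10 genes, FTH1, FTL, TFRC, SLC11A2, SLC11A1, SLC40A1, ALAS1, HMOX1, ACO1 and IREB2. They were chosen by gene name from the 60623 Ensembl identifiers in each of the 9 RNA-seq libraries, and each name belonged to a single identifier. The rule uses names alone, and the names were picked with earlier results of these data known. The reason for following them is that doxycycline, the drug that switches on the constructs in these cells, is a tetracycline and binds metal ions.

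U937 is a human monocytic leukemia cell line. Stable lines had been made with a retroviral vector that responds to doxycycline and carries HA-tagged AML1-ETO, HA-tagged ETO2-GLIS2 or no insert. AML1-ETO joins the DNA-binding part of RUNX1 to RUNX1T1, and ETO2-GLIS2 joins CBFA2T3 to the zinc fingers of GLIS2. Every line was sampled at 0 h and after 12 h and 48 h in 5 μg/ml doxycycline, so the empty vector line also received the drug. The labels give the genotype of the empty vector line as WT and those of the others as AE and EG over-expressed. Each fusion protein was represented by 1 selected clone, so a difference between lines cannot be told apart from a difference between clones. There was 1 library for each of the 9 conditions, and no difference below has a replicate check or a p-value.

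Cells take up iron bound to transferrin through the transferrin receptor, move it into the cytosol, store what is not used in ferritin shells and release it through ferroportin. Iron regulatory proteins bind a short hairpin, the iron-responsive element, in the untranslated regions of several of these mRNAs when iron is scarce. Bound in the 5′ untranslated region the hairpin blocks translation, as for ferritin and ferroportin. Bound in the 3′ untranslated region it protects the mRNA from decay, as for the transferrin receptor. An RNA level can therefore reflect this control for the transferrin receptor, and much less so for ferritin. It also depends on how much RNA is made, so it is not a direct measure of this control. Monocytes and macrophages are professional handlers of iron, because they recycle heme from red cells and withhold iron from microbes.

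The hairpins are shown because their place bears on which of these mRNAs the iron regulatory proteins can change in level. Each is written 5′ to 3′ over 28 bases as in the annotated MANE Select transcript, with T for U, and the capitals mark the 6-base loop. The name is followed by the untranslated region that holds it.
FTL, 5′ region: tcttgcttcaaCAGTGTttggacggaac
SLC40A1, 5′ region: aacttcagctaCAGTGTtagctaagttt
TFRC, 3′ region, hairpin i: attatcggaagCAGTGCcttccataatt
TFRC, 3′ region, hairpin ii: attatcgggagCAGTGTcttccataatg
TFRC, 3′ region, hairpin iii: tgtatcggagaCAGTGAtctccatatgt
TFRC, 3′ region, hairpin iv: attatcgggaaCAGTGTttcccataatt
SLC11A2, 3′ region: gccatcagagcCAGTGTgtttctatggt

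The search asked for the loop CAGTGN with a final base other than G, a C 6 bases before the loop and at least 4 of 5 pairs between the bases that flank it. In FTL, SLC40A1 and the 4 TFRC hairpins all 5 pairs formed, counting G with T as a pair, and in SLC11A2 4 pairs formed. Of 18922 MANE Select transcripts, 52 (0.275%) held such a match in the 5′ region, 607 (3.21%) in the 3′ region and 2 (0.0106%) held 3 or more in the 3′ region. Matches with 4 pairs also lay in the 3′ regions of ACO1 and IREB2, and their sequences are not shown. By this search the SLC11A2 match, also with 4 pairs in a 3′ region, does not stand above them. Such matches are frequent enough among all transcripts that each of them is a match of letters only. ALAS1 and SLC11A1 held none, and matches in FTH1 and HMOX1 are not reported here. The FTL hairpin occupies bases 28 to 55 of its transcript, and its first 23 bases lie at chr19:48965336-48965358 on the plus strand of GRCh38 (RefSeq, GRCh38.p14).

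Depth and identity of the libraries were checked first. The deposited values are FPKM, the reads on a gene scaled to its length in exons and to the reads counted in the library, and the totals implied by them ran from 15136398 to 18443639 reads. Whole reads were recovered for 23883 (99.97%) of the 23889 genes that 3 or more libraries listed above 0, and the 95% intervals below are built on them. These intervals cover counting error only and contain nothing about variation between cultures. RUNX1T1 stood at 0.512, 22.2 and 28.7 FPKM at 0, 12 and 48 h in AML1-ETO cells and at no more than 0.0240 FPKM in the other 6 libraries. In the ETO2-GLIS2 line GLIS2 stood at 2.39, 6.79 and 8.85 FPKM and CBFA2T3 at 4.10, 11.4 and 12.6 FPKM. In the empty vector and AML1-ETO lines GLIS2 ran from 2.47 to 5.60 FPKM and CBFA2T3 from 0.220 to 6.38 FPKM. At 0 h both genes were lower in the ETO2-GLIS2 line than in the other lines. The summed FPKM of 10 myelomonocytic markers ran from 260 to 1817, lowest in AML1-ETO cells at 48 h, where LYZ was at 45.1 FPKM and SPI1 at 11.9 FPKM. LYZ carried most of that difference, at 970 FPKM in the same line at 0 h. In that line CSF1R at 0.187 and 0.0128 FPKM, ITGAM at 1.01 and 0.832 FPKM and CD4 at 218 and 191 FPKM were also lower at 48 h than at 0 h. CD33 was higher at 48 h there, at 6.65 FPKM, and so were FCGR1A at 2.53 and 3.49 FPKM and MPO at 0.154 and 0.559 FPKM. The sum went from 1564 to 651 FPKM between 0 and 48 h in ETO2-GLIS2 cells too, with LYZ at 1283 and 332 FPKM, and from 770 to 702 FPKM in empty vector cells. CD14 and CD68 were listed at or near 0 in all 9 libraries. Overlap with exons of other genes, which can leave reads out of a count, was not examined for the markers. Among erythroid markers, HBA2, HBB, HBG1, HBG2 and AHSP were listed at 0 in all 9 libraries, while EPOR ran from 1.20 to 2.80 FPKM and KLF1 from 0.163 to 1.37 FPKM. Of the whole erythroid list of 10 genes, 1 or 2 reached an FPKM of 1 in each library, and the summed level ran from 1.71 to 3.89 FPKM.

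Differences are given on the log2(FPKM + 0.01) scale, as the first condition named minus the second. A gene was counted as past 2-fold only where the mean FPKM of both libraries was at least 1. The median log2 change of all genes that met this mean was between 0.11 and 0.22 in the 6 comparisons of a line with its own 0 h library. Rescaling the libraries by their median ratio brought it to between 0.01 and 0.07, so a small positive value on the FPKM scale is not a rise relative to the typical gene. Rescaled values are given beside those they move across 0 or across 2-fold.

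Levels of the 10 genes spanned a wide range. FTL, the light subunit of ferritin, was by far the highest with a mean of 5264 FPKM over the 9 libraries, and at least 99.97% of the genes above 0 were lower in each library. ALAS1 followed with a mean of 82.1 FPKM and FTH1 with 52.2 FPKM, and their ranges over the libraries overlapped. The level of FTH1, and so its place in this order, is uncertain for reasons given below. TFRC at 21.5 FPKM and IREB2 at 20.2 FPKM also overlapped. ACO1 at 7.65 FPKM, HMOX1 at 5.65 FPKM and SLC11A2 at 5.08 FPKM overlapped with each other, and SLC40A1 at 2.17 FPKM lay below all of these. SLC11A1 came last at 0.0385 FPKM and was the only one of the 10 to miss the mean FPKM of 1 in every comparison. The remaining 9 varied little, from 1.42-fold between the lowest and highest library for IREB2 to 2.20-fold for HMOX1.

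**Figure D1:**
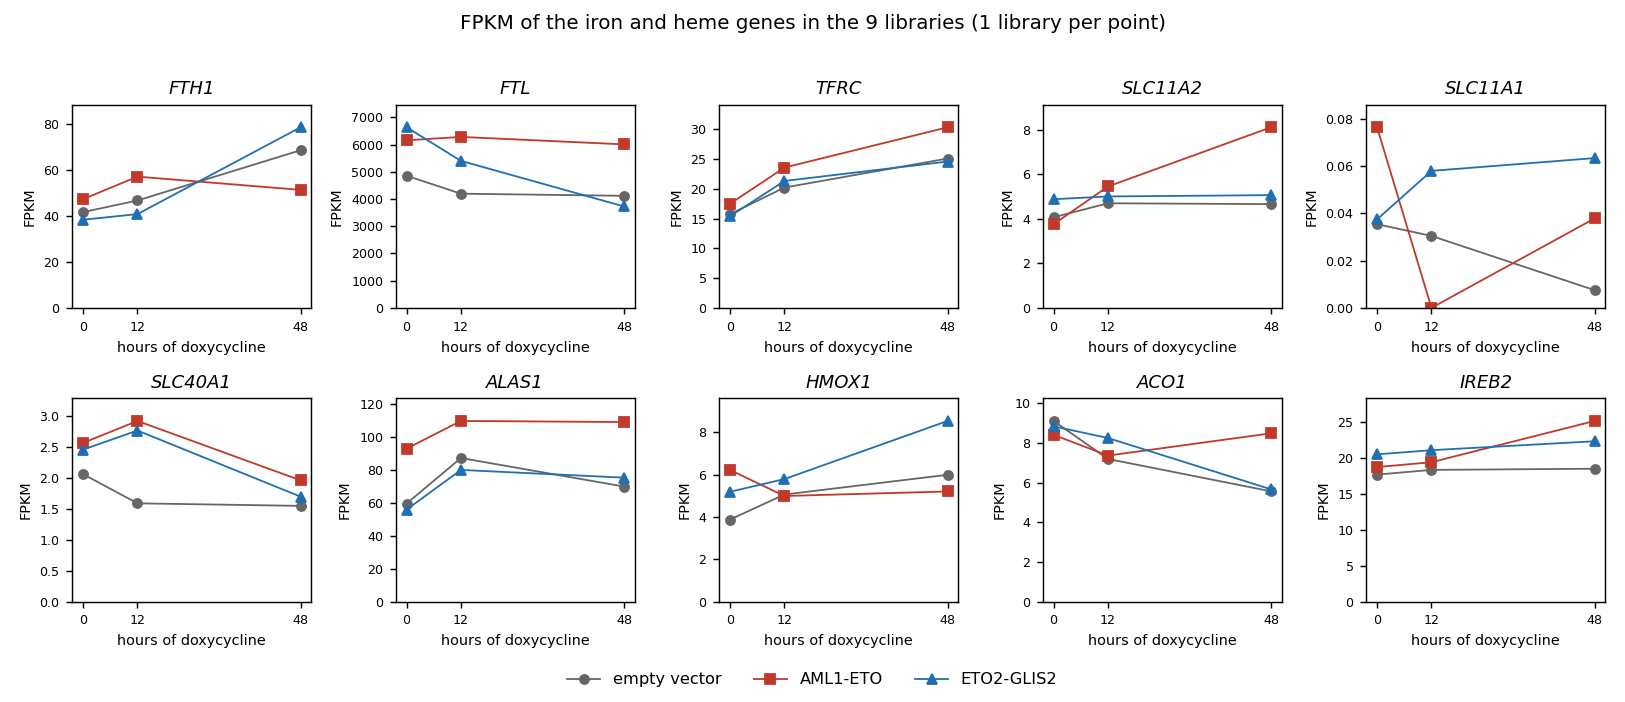
FPKM of the 10 genes (vertical axes, from 0, each with its own scale) against hours of doxycycline (horizontal axes) in the empty vector, AML1-ETO and ETO2-GLIS2 lines, with 1 library per point. TFRC is higher at each later time in all 3 lines, SLC11A2 separates from the other lines in AML1-ETO cells, and FTL drops to 3725 FPKM in ETO2-GLIS2 cells at 48 h.

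The question of each within-line comparison is what happened to these genes after the drug was added, with the empty vector line showing the drug without a fusion protein. Every 12 h and 48 h library came from treated cells, so the drug and the time in culture cannot be told apart. RNA was taken from whole cultures, so a change in some cells and a smaller change in all cells cannot be told apart either. None of the 9 genes above that minimum was past 2-fold at 48 h in empty vector cells, where 10.7% of all tested genes were. In the AML1-ETO line 1 of 9 was, against 28.4% of all tested genes, and in ETO2-GLIS2 cells 1 of 9 was, against 13.1%. At 12 h none was past 2-fold in any line, beside 7.25% of tested genes in empty vector cells, 8.73% in AML1-ETO cells and 4.32% for ETO2-GLIS2 cells. The 2 changes past 2-fold were those of SLC11A2 in AML1-ETO cells and of FTH1 in ETO2-GLIS2 cells. Both fell short of 2-fold after rescaling by the median ratio. The median log2 change at 48 h of the 9 genes was 0.20, 0.12 and 0.12 in the empty vector, AML1-ETO and ETO2-GLIS2 lines, beside 0.16, 0.22 and 0.16 for all tested genes. After rescaling the medians of the 9 genes were 0.06, -0.03 and -0.01, beside 0.02, 0.07 and 0.02.

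**Figure D2:**
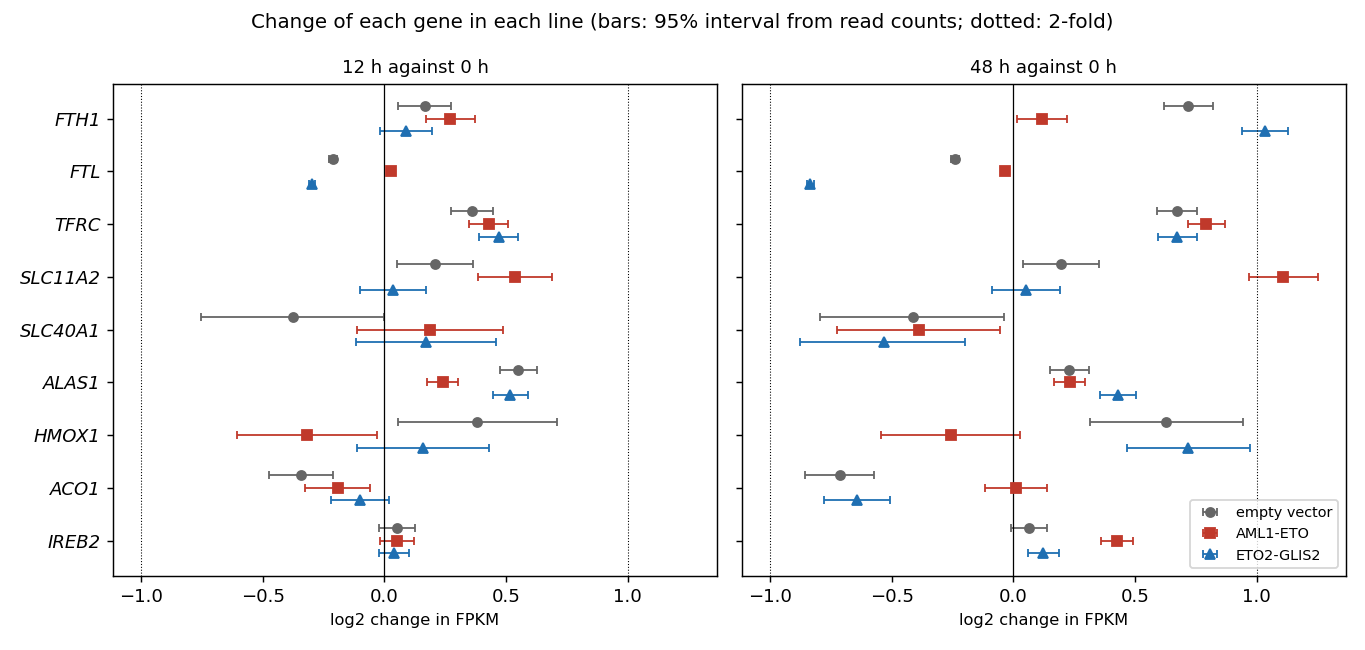
Log2 change in FPKM (horizontal axes) of the 9 genes past the mean FPKM of 1, at 12 h and 48 h against 0 h of the same line, with 95% intervals from read counts as bars and 2-fold as dotted lines. TFRC is above 0 in all 6 comparisons. At 48 h FTH1, HMOX1, ACO1, SLC11A2, FTL, ALAS1 and IREB2 have intervals in AML1-ETO cells that lie apart from those in ETO2-GLIS2 cells.

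Uptake of transferrin iron starts with TFRC, the transferrin receptor, which lies on chromosome 3 (ENSG00000072274, GRCh38, 196049284 to 196082090). It stood at 15.7, 20.2 and 25.1 FPKM at 0, 12 and 48 h in empty vector cells. The AML1-ETO line had 17.5, 23.6 and 30.3 FPKM, and the ETO2-GLIS2 line 15.4, 21.3 and 24.6 FPKM. Every 12 h library was higher than the 0 h library of its line, and every 48 h library was higher again. The log2 change at 48 h was 0.67 (interval 0.59 to 0.75) in empty vector cells, 0.79 (0.72 to 0.87) in AML1-ETO cells and 0.67 (0.60 to 0.75) in ETO2-GLIS2 cells. After rescaling it was 0.54, 0.64 and 0.54, so the direction held in all 3 lines, the one without a fusion protein included. The ETO2-GLIS2 change and the empty vector change differed by 0.00 (-0.11 to 0.12), and the AML1-ETO change exceeded the empty vector change by 0.12 (0.01 to 0.23). A change of this size was not rare, since 22.6% of tested genes in empty vector cells changed by more in either direction.

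SLC11A2 encodes DMT1, the carrier that moves ferrous iron out of the endosome after transferrin has released it, and lies on chromosome 12 (ENSG00000110911, GRCh38, 50952263 to 51028886). AML1-ETO cells had 3.76, 5.46 and 8.12 FPKM at 0, 12 and 48 h. Empty vector cells had 4.07, 4.70 and 4.67 FPKM, and ETO2-GLIS2 cells had 4.89, 5.01 and 5.07 FPKM. The AML1-ETO line had the lowest value of the 3 lines at 0 h and the highest at 48 h. Its log2 change was 0.54 (0.38 to 0.69) at 12 h and 1.11 (0.97 to 1.25) at 48 h, a ratio of 2.16, and 0.96 at 48 h after rescaling. The change at 48 h exceeded that of the empty vector line by 0.91 (0.70 to 1.12) and that of the ETO2-GLIS2 line by 1.05 (0.86 to 1.25). In the AML1-ETO line 14.7% of all tested genes had a higher log2 change, and 24.6% changed by more in either direction. That 48 h library also had the lowest summed level of the myelomonocytic markers, at 260 FPKM against 651 to 1817 FPKM in the other 8, with 5 of the 10 markers at an FPKM of at least 1, and the part of this in its iron and heme values was not tested. In the ETO2-GLIS2 line the 48 h value was 0.05 (-0.09 to 0.19), and -0.08 after rescaling, so no direction is given there.

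SLC11A1 encodes NRAMP1, a metal carrier of the phagosome membrane in mature macrophages, and lies on chromosome 2 (ENSG00000018280, GRCh38, 218382273 to 218396894). It was close to absent. Between 0 and 11 recovered reads were found per library, or 0 to 0.0765 FPKM. The AML1-ETO library at 12 h had 0 reads, and 3 reads would have been 0.0224 FPKM there. In 8 of the 10 comparisons the counting interval of the difference included 0. The other 2 were the AML1-ETO line at 12 h against 0 h, with 0 against 11 reads, and the ETO2-GLIS2 against the empty vector line at 48 h, with 9 against 1 read and a log2 difference of 2.07 (0.23 to 8.54). All 9 levels are far under the mean FPKM of 1, and no order is read from them.

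The ferritin genes went in opposite directions at 48 h in the empty vector and ETO2-GLIS2 lines. FTL, on chromosome 19 (ENSG00000087086, GRCh38, 48965309 to 48966879), stood at 4855, 4195 and 4118 FPKM at 0, 12 and 48 h in empty vector cells. AML1-ETO cells had 6155, 6282 and 6007 FPKM, and ETO2-GLIS2 cells had 6636, 5401 and 3725 FPKM. The ETO2-GLIS2 line thus went from the highest level at 0 h to the lowest at 48 h. Its log2 change at 48 h was -0.83 (-0.85 to -0.82), compared with -0.24 (-0.25 to -0.22) in empty vector cells and -0.04 (-0.05 to -0.02) in AML1-ETO cells. The ETO2-GLIS2 change lay 0.60 below the empty vector change, with the difference at -0.60 (-0.62 to -0.57). At least 53077 reads of FTL per library stand behind these narrow intervals, which say nothing about how much another culture would differ. FTL in AML1-ETO cells at 12 h was at 0.03, and at -0.12 after rescaling.

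FTH1 encodes the heavy subunit of ferritin, which oxidises iron on its way into the shell, and lies on chromosome 11 (ENSG00000167996, GRCh38, 61964285 to 61967634). It stood at 41.6, 46.6 and 68.4 FPKM at 0, 12 and 48 h in empty vector cells. AML1-ETO cells had 47.2, 57.0 and 51.2 FPKM, and ETO2-GLIS2 cells had 38.3, 40.7 and 78.4 FPKM. The empty vector and ETO2-GLIS2 lines were highest at 48 h and the AML1-ETO line at 12 h. The log2 change at 48 h was 1.03 (0.94 to 1.13) in ETO2-GLIS2 cells, a ratio of 2.05, and 0.90 after rescaling. It was 0.72 (0.62 to 0.82) in empty vector cells and 0.12 (0.02 to 0.22) in AML1-ETO cells, where the rescaled value was -0.03. The AML1-ETO change differed from the empty vector change by -0.60 (-0.74 to -0.46), and the ETO2-GLIS2 change by 0.32 (0.18 to 0.45). With the empty vector change subtracted, the ETO2-GLIS2 value no longer passed 2-fold.

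The level of FTH1 is uncertain in these files. Exons of BEST1 on the other strand cover 63.2% of its exon bases in the annotation used here, and the library kit does not mark strand. HTSeq leaves out a read that overlaps 2 genes when strand is ignored, and assigns it by its orientation when strand is used. BEST1 itself was listed at 0.0972 to 0.626 FPKM, and its value at 48 h was above that at 0 h in each of the 3 lines. For TFRC 1.10% of exon bases were covered on the other strand, and for the other 8 genes none on either strand. The TFRC share is over 17376 exon bases of the annotation used here, whereas the length behind its FPKM is 7794 bases. For FTH1 both lengths are 2004 bases. The files also list 24 FTH1 pseudogenes, which together summed to between 1.35 and 5.42 FPKM per library, and 16 FTL pseudogenes, which summed to between 1.31 and 6.67 FPKM. Only FTH1P2, with a mean of 1.28 FPKM, and FTLP3, with a mean of 2.45 FPKM, reached a mean of 1. Reads that align to several places are left out of such counts by default, and the part of the overlap or of the pseudogenes in the FTH1 values was not tested. The ratio of FTH1 to FTL is therefore not given.

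SLC40A1 encodes ferroportin, the only known iron exporter of human cells, on chromosome 2 (ENSG00000138449, GRCh38, 189560590 to 189580786). It stood at 2.06, 1.59 and 1.55 FPKM at 0, 12 and 48 h in empty vector cells. AML1-ETO cells had 2.56, 2.92 and 1.96 FPKM, and ETO2-GLIS2 cells had 2.45, 2.76 and 1.69 FPKM. Each line was lowest at 48 h. The log2 change at 48 h was -0.41 (-0.79 to -0.04), -0.39 (-0.72 to -0.06) and -0.53 (-0.87 to -0.20) in the empty vector, AML1-ETO and ETO2-GLIS2 lines. With 103 to 214 reads per library these are the widest intervals among the 9 genes, and the 3 values could not be told apart. At 12 h both fusion lines were above 0, at 0.19 (-0.11 to 0.49) and 0.17 (-0.12 to 0.46), and the empty vector line was at -0.37 (-0.75 to -0.00).

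Heme synthesis begins with ALAS1, the form of its first enzyme used outside red cells, which lies on chromosome 3 (ENSG00000023330, GRCh38, 52198083 to 52214327). It stood at 59.5, 87.2 and 69.8 FPKM at 0, 12 and 48 h in empty vector cells. AML1-ETO cells had 92.9, 109.7 and 109.0 FPKM, and ETO2-GLIS2 cells had 55.8, 79.9 and 75.2 FPKM. All 3 lines were higher at 12 h than at 0 h, and the AML1-ETO line was the highest at every time. The log2 change at 12 h was 0.55 (0.48 to 0.63), 0.24 (0.18 to 0.30) and 0.52 (0.44 to 0.59) in the empty vector, AML1-ETO and ETO2-GLIS2 lines, and 0.42, 0.09 and 0.41 after rescaling. The AML1-ETO change at 12 h was lower than the empty vector change, with a difference of -0.31 (-0.41 to -0.21). At 48 h the changes were 0.23, 0.23 and 0.43. The erythroid form ALAS2 was at or below 0.193 FPKM in every library.

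HMOX1 encodes heme oxygenase 1, which opens the heme ring and frees its iron, and lies on chromosome 22 (ENSG00000100292, GRCh38, 35381096 to 35394207). It stood at 3.88, 5.06 and 5.99 FPKM at 0, 12 and 48 h in empty vector cells. AML1-ETO cells had 6.22, 4.99 and 5.20 FPKM, and ETO2-GLIS2 cells had 5.19, 5.79 and 8.54 FPKM. The AML1-ETO line had the highest value at 0 h, and at 12 h it lay beside the empty vector line, with 177 against 176 reads. The other lines had a higher value at each later time. The log2 change at 48 h was 0.63 (0.32 to 0.94) in empty vector cells, 0.72 (0.47 to 0.97) in ETO2-GLIS2 cells and -0.26 (-0.54 to 0.03) in AML1-ETO cells. The AML1-ETO change lay below the empty vector change, with a difference of -0.70 (-1.12 to -0.28) at 12 h and -0.88 (-1.30 to -0.47) at 48 h. Between these lines the levels themselves differed by 0.68 (0.38 to 0.99) at 0 h and by -0.20 (-0.50 to 0.09) at 48 h.

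Of the iron regulatory proteins, ACO1 encodes IRP1, which is cytosolic aconitase when it holds an iron-sulfur cluster, on chromosome 9 (ENSG00000122729, GRCh38, 32384643 to 32454769). It stood at 9.10, 7.19 and 5.56 FPKM at 0, 12 and 48 h in empty vector cells. AML1-ETO cells had 8.41, 7.36 and 8.48 FPKM, and ETO2-GLIS2 cells had 8.83, 8.24 and 5.66 FPKM. The empty vector and ETO2-GLIS2 lines were lowest at 48 h, and the AML1-ETO line was back near its 0 h value. The log2 change at 48 h was -0.71 (-0.85 to -0.57) in empty vector cells, -0.64 (-0.78 to -0.51) in ETO2-GLIS2 cells and 0.01 (-0.11 to 0.14) in AML1-ETO cells, or -0.14 there after rescaling. The AML1-ETO change exceeded the empty vector change by 0.72 (0.54 to 0.91), whereas the ETO2-GLIS2 change differed from it by 0.07 (-0.12 to 0.26).

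IREB2 encodes IRP2, which is degraded when iron is plentiful, on chromosome 15 (ENSG00000136381, GRCh38, 78437431 to 78501453). It stood at 17.7, 18.3 and 18.5 FPKM at 0, 12 and 48 h in empty vector cells. AML1-ETO cells had 18.7, 19.4 and 25.1 FPKM, and ETO2-GLIS2 cells had 20.5, 21.1 and 22.3 FPKM. The AML1-ETO library at 48 h was the highest, and the other libraries lay close together. The log2 change in AML1-ETO cells at 48 h was 0.43 (0.36 to 0.49), or 0.28 after rescaling, and exceeded the empty vector change by 0.36 (0.26 to 0.46). The other 5 changes of IREB2 were between 0.04 and 0.12 and fell below 0 after rescaling. FBXL5, the iron-sensing ligase subunit that marks IRP2 for degradation, ran from 10.2 to 13.4 FPKM.

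**Figure D3:**
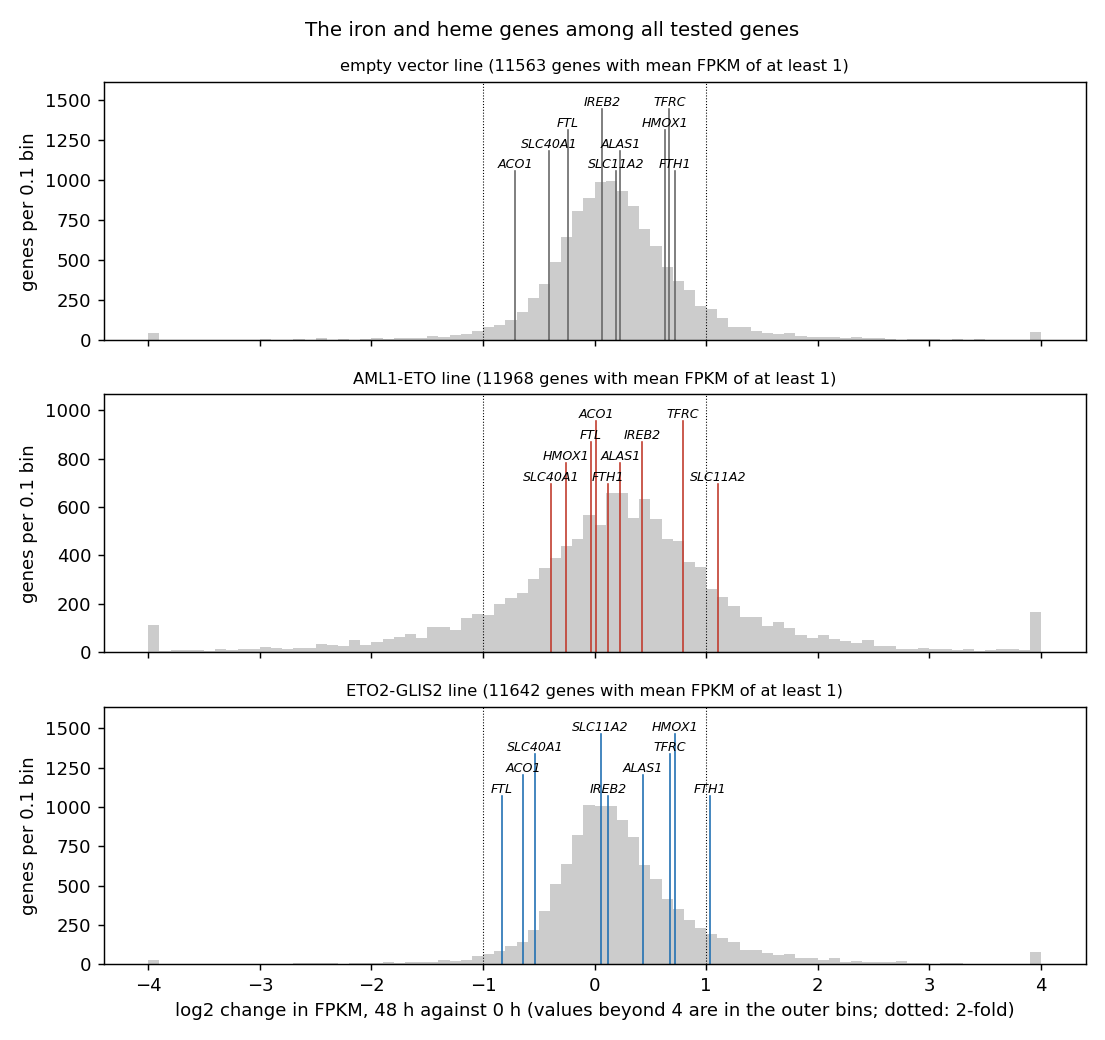
Number of tested genes (vertical axes) per bin of 0.1 of the log2 change in FPKM at 48 h against 0 h (horizontal axis) in each line, with the 9 iron and heme genes drawn as coloured lines and 2-fold as dotted lines. In the empty vector line all 9 lie inside 2-fold, and SLC11A2 in AML1-ETO cells and FTH1 in ETO2-GLIS2 cells lie just outside it.

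Comparing the lines with each other at the same time addresses where the fusion lines stood apart from the empty vector line before and after induction. None of the 9 genes was past 2-fold in these 4 comparisons. Of all tested genes, 4.67% were past 2-fold between the AML1-ETO and empty vector lines at 0 h and 23.3% at 48 h, and 6.24% and 6.36% were between the ETO2-GLIS2 and empty vector lines. At 0 h the AML1-ETO line already exceeded the empty vector line by 0.68 (0.38 to 0.99) on the log2 scale for HMOX1 and by 0.64 (0.57 to 0.72) for ALAS1. FTL was higher at 0 h in both fusion lines, by 0.34 (0.33 to 0.36) in AML1-ETO cells and 0.45 (0.44 to 0.46) in ETO2-GLIS2 cells. At 48 h SLC11A2 exceeded its level in empty vector cells by 0.80 (0.67 to 0.94) in AML1-ETO cells, ALAS1 by 0.64 (0.57 to 0.71), ACO1 by 0.61 (0.47 to 0.76) and FTL by 0.54 (0.53 to 0.56), and FTH1 was lower at -0.42 (-0.51 to -0.32). At 48 h the ETO2-GLIS2 line ranged from -0.14 for FTL to 0.51 (0.26 to 0.77) for HMOX1, a narrower range than that of the AML1-ETO line. These comparisons share the empty vector libraries with each other, so they are not separate measurements.

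The wider pathways hold 113 further listed genes, of which 34 had a mean FPKM under 1. Of the 79 tested at 48 h, 60 stayed within 2-fold and 19 passed it in at least 1 line. Over all tested genes of the data, 35.6% passed 2-fold in at least 1 line, a higher share. By line, 5 of 78 passed in empty vector cells, 16 of 79 among AML1-ETO cells and 6 of 75 among ETO2-GLIS2 cells, each a lower share than the 10.7%, 28.4% and 13.1% of all tested genes. In uptake, where 9 listed genes were tested in empty vector cells and 10 in AML1-ETO cells, none passed in the empty vector and ETO2-GLIS2 lines and 3 of 10 did in AML1-ETO cells, close to the 28.4% of all tested genes. Besides SLC11A2 these were SLC25A28, mitoferrin-2, which brings iron into mitochondria, and STEAP3, the reductase that prepares endosomal iron for DMT1. SLC25A28 went from 23.1 to 49.7 FPKM in AML1-ETO cells, a log2 change of 1.11, or 0.96 and so within 2-fold after rescaling, as for SLC11A2. Before rescaling SLC25A28 was at 0.48 (0.34 to 0.62) in empty vector cells and 0.14 in ETO2-GLIS2 cells. STEAP3 went from 13.0 to 3.60 FPKM there, a log2 change of -1.85, beside -0.84 in ETO2-GLIS2 cells and -0.20 in empty vector cells. SLC11A2 and STEAP3, which act in the same endosome, thus lay on opposite sides of 0. TFR2, the second transferrin receptor, stayed between 1.35 and 2.65 FPKM.

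Storage had 5 tested genes in the empty vector and AML1-ETO lines and 4 in ETO2-GLIS2 cells. In each line 1 of them passed 2-fold, and in ETO2-GLIS2 cells it was FTH1. The shares of all tested genes that passed in the empty vector, AML1-ETO and ETO2-GLIS2 lines were 10.7%, 28.4% and 13.1%. PCBP2, an iron chaperone that also binds RNA, passed in empty vector cells, from 7.45 to 16.5 FPKM, and in AML1-ETO cells, from 7.14 to 16.4 FPKM. Its log2 change was 1.15, 1.20 and 0.71 in the empty vector, AML1-ETO and ETO2-GLIS2 lines. HAMP, the gene of the hormone that closes ferroportin, was at or below 0.0454 FPKM in every library. Of the 10 listed genes of export and its control only 2 were measured above the mean of 1, and neither passed.

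Heme synthesis had 11 tested genes in each line, and those past 2-fold were UROS and PPOX in AML1-ETO cells, 2 of 11 against 28.4% of all tested genes. UROS, which closes the porphyrin ring, went from 2.66 to 5.82 FPKM, and PPOX, which makes protoporphyrin, from 4.90 to 11.3 FPKM. Their log2 changes of 1.12 and 1.20 became 0.97 and 1.05 after rescaling, so that UROS no longer passed. In the empty vector and ETO2-GLIS2 lines UROS was at 0.48 and 0.40 and PPOX at 0.40 and 0.38 before rescaling. The median log2 change of the 11 genes was 0.23, 0.23 and 0.07 in the empty vector, AML1-ETO and ETO2-GLIS2 lines, beside the 0.16, 0.22 and 0.16 of all tested genes, and 0.10, 0.08 and -0.06 after rescaling. In heme breakdown and transport, 10 genes were tested per line, and 0, 2 and 1 passed 2-fold in the empty vector, AML1-ETO and ETO2-GLIS2 lines. The shares of all tested genes that passed were 10.7%, 28.4% and 13.1%. FLVCR1, first described as a heme exporter, was lower at 48 h in all 3 lines, at -0.90 in empty vector cells, -1.14 in AML1-ETO cells and -1.02 for ETO2-GLIS2 cells, and passed 2-fold in the latter pair. After rescaling it was -1.03, -1.29 and -1.15 and passed in all 3 lines. SLC48A1, which carries heme out of the lysosome, went from 7.50 to 2.92 FPKM in AML1-ETO cells, a log2 change of -1.36, and was at 0.30 and 0.31 in the empty vector and ETO2-GLIS2 lines.

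Assembly of iron-sulfur clusters, the other main use of iron and the switch within IRP1, had 24 tested genes in the empty vector and AML1-ETO lines and 22 in ETO2-GLIS2 cells. Of these, 1, 2 and 0 passed 2-fold in the empty vector, AML1-ETO and ETO2-GLIS2 lines. The shares of all tested genes that passed were 10.7%, 28.4% and 13.1%. ISCU, the scaffold on which clusters are built, went from 10.8 to 25.8 FPKM in AML1-ETO cells, a log2 change of 1.25. It was higher at 48 h in the empty vector and ETO2-GLIS2 lines too, at 0.76 (0.62 to 0.90) and 0.40 (0.29 to 0.52). HSCB, the co-chaperone that helps to hand clusters on, went from 0.954 to 2.49 FPKM in AML1-ETO cells. Its log2 change there had a wide interval, at 1.37 (0.66 to 2.15), beside 0.31 and 0.26 in the empty vector and ETO2-GLIS2 lines. CIAO2B, of the cytosolic targeting complex, passed in empty vector cells alone, from 15.0 to 34.4 FPKM, although its change in AML1-ETO cells was close, at 0.95 against 1.20. The median log2 change of this list was 0.17, 0.27 and -0.01 in the empty vector, AML1-ETO and ETO2-GLIS2 lines.

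**Figure D4:**
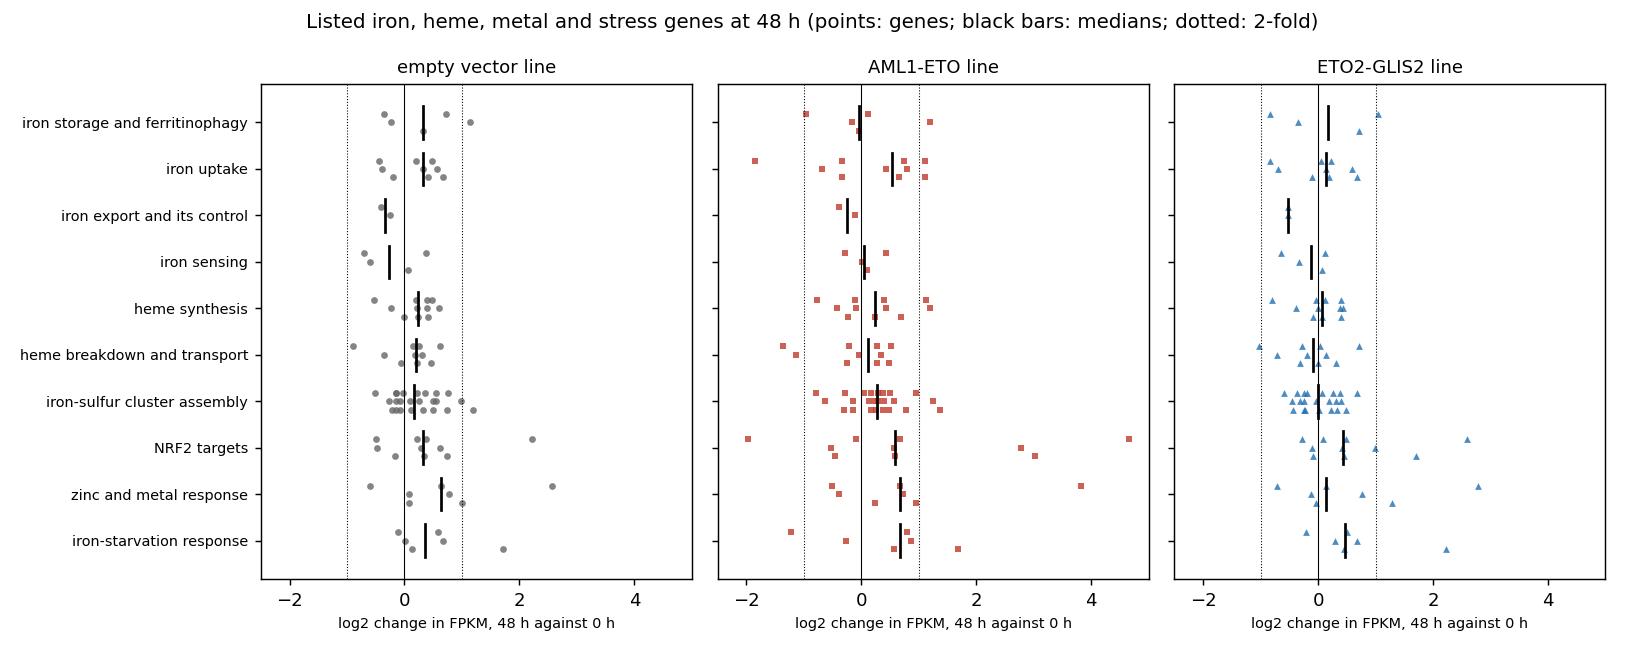
Log2 change in FPKM at 48 h against 0 h (horizontal axes) of every tested gene of 10 lists (vertical axis; the 9 iron and heme genes tested are among them), in each line, with the list's median as a black bar and 2-fold as dotted lines. Most genes lie within 2-fold, and the points farthest to the right are SLC7A11 at 4.66 in AML1-ETO cells and MT2A at 2.57 and 2.78 in the empty vector and ETO2-GLIS2 lines.

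HMOX1 had the widest range of the 9 genes, and the genes with the most similar FPKM pattern over the 9 libraries were sought among 7219 candidates whose mean FPKM was 5 or more. By Pearson's r these were PSAP at 0.87, ARHGAP9 at 0.86, PTTG1IP at 0.84, SMIM3 at 0.83 and AC078817.1 at 0.83. PSAP, the precursor of the saposins of the lysosome, ran from 180 FPKM in empty vector cells at 0 h to 319 FPKM in ETO2-GLIS2 cells at 48 h. Those are also the lowest and the highest library for HMOX1. Among the other iron and heme genes the most similar was FTH1 at 0.67 and the most opposite was ACO1 at -0.67. The 9 points share lines and times, and the values are descriptions without a test.

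Promoter sequence around the transcription start was given for 8 of the 10 genes in the RefSeq table, all but FTH1 and HMOX1, as 12 entries. The RUNX motif TGTGGT, which AML1-ETO inherits the ability to bind from RUNX1, was in 0 of the 12 on either strand, and in 13.1% of all 35116 promoters. The antioxidant response motif TGACNNNGC was also in 0, and in 13.3% of all promoters. The metal response motif TGCACNC was in those of ALAS1 and SLC11A1, and in 12.1% of all promoters. These are matches of letters within a short window and do not show whether a factor binds.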

How the data were processed

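The authors aligned reads of unstranded TruSeq libraries to hg38 with HISAT2 (2.0.5), processed alignments with SAMtools (1.7), assigned reads to genes by HTSeq (0.9.1) under default settings and deposited FPKM. The submitters' processing notes also name DESeq2 (1.22.2). The annotation version is not given in the sources used here.

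Whole reads were recovered from the FPKM with numpy (2.4.6), scipy (1.17.1) and pandas (2.3.3) under Python (3.11.15), and plots drawn with matplotlib (3.10.9). On simulated data 99.04% of 7567 genes were given exactly the reads drawn. Changes use the deposited FPKM. Intervals are exact Clopper-Pearson for a ratio of reads and from the delta method for a difference of changes. With 1 library per condition no test was run.

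All 10 genes are named, as are other listed genes past 2-fold at 48 h with a mean FPKM of at least 1 in at least 1 line, the 2 highest ferritin pseudogenes, ALAS2, TFR2, HAMP and FBXL5, and the 5 genes most like HMOX1, the gene of widest range. The genes and lists were chosen with earlier results of these data known. Coordinates are RefSeq on GRCh38.p14. Exon overlaps and hairpins come from GENCODE on GRCh37, without coordinates. The ChIP-seq data were not analysed here.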

Additional observations from a re-analysis of the deposited data

How the results depend on the processing

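The count of genes past 2-fold did not change in any comparison when the minimum mean FPKM was raised to 5 or all identifiers of a name were summed. In the AML1-ETO line at 48 h it went from 1 to 0 with a pseudocount of 1 FPKM, with the median-ratio scaling, with the empty vector change subtracted, and with the 0 h library of the empty vector line as reference. In the ETO2-GLIS2 line at 48 h it went from 1 to 0 with the median-ratio scaling and with the empty vector change subtracted. With the empty vector 0 h library as its reference it stayed at 1, but the gene was HMOX1 in place of FTH1. Without the filter on low FPKM, SLC11A1 alone raised the count from 0 to 1 in 4 comparisons, those of the empty vector line at 48 h, the AML1-ETO line at 12 h, and both fusion lines against the empty vector line at 48 h. A 1.5-fold threshold gave 4 genes at 48 h in empty vector cells (FTH1, TFRC and HMOX1 up, ACO1 down), 2 in AML1-ETO cells and 5 for ETO2-GLIS2 cells, where 27.6%, 50.1% and 28.4% of tested genes passed it. It gave 2 for the AML1-ETO against the empty vector line at 0 h and 3 at 48 h, where 11% and 42.5% of tested genes passed. With the median-ratio scaling, chosen for the other listed genes after seeing the data, SLC25A28 and UROS in AML1-ETO cells no longer passed at 48 h, and FLVCR1 in empty vector cells and PCBP1 (-1.11) in AML1-ETO cells newly did. Neither change past 2-fold of the 9 genes turned its direction under any of these settings. The median-ratio scaling moved 33 of 100 log2 changes outside their counting interval. No paired analysis was possible because each condition had 1 library and the labels carry no replicate numbers. Depth limits SLC11A1, with at most 11 reads, and widens the intervals of SLC40A1 and HMOX1.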

Other observations

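Among 7 tested genes of the zinc and metal response, 1, 1 and 2 were past 2-fold at 48 h in the empty vector, AML1-ETO and ETO2-GLIS2 lines, where 10.7%, 28.4% and 13.1% of all tested genes were. MT2A, a metallothionein that binds zinc and copper, stood at 20.7, 41.6 and 123 FPKM at 0, 12 and 48 h in empty vector cells, at 31.7, 93.8 and 450 FPKM in AML1-ETO cells and at 38.1, 68.3 and 261 FPKM in ETO2-GLIS2 cells. Its log2 change at 48 h was 2.57, 3.83 and 2.78, in the line without a fusion protein too. MT1E, a second metallothionein, passed 2-fold in ETO2-GLIS2 cells, from 16.4 to 40.3 FPKM, a log2 change of 1.29. The other lines fell just short of it, at 0.9975 (0.78 to 1.22) in empty vector cells and 0.95 (0.75 to 1.15) in AML1-ETO cells. MT genes are near-identical copies, and reads shared between them could not be assigned.

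Of 10 tested NRF2 targets, genes of the antioxidant response, 1, 3 and 2 were past 2-fold upwards at 48 h in the empty vector, AML1-ETO and ETO2-GLIS2 lines, and 1 was past it downwards in AML1-ETO cells. Of all tested genes, 7.82%, 17.1% and 10.6% were past 2-fold upwards and 11.3% downwards in AML1-ETO cells. SLC7A11, the cystine carrier, which other stress pathways also raise, went from 2.81 to 13.1 FPKM in empty vector cells, from 2.72 to 68.9 FPKM in AML1-ETO cells and from 3.13 to 18.9 FPKM in ETO2-GLIS2 cells. NQO1, a quinone reductase, went from 9.11 to 62.7 FPKM in AML1-ETO cells, and OSGIN1 from 0.456 to 3.78 FPKM. OSGIN1 also passed 2-fold in ETO2-GLIS2 cells, from 0.537 to 1.77 FPKM, and was at 0.745 on the log2 scale in empty vector cells. NQO1 was at 0.9945 in ETO2-GLIS2 cells, just short of 2-fold, and at 0.35 in empty vector cells. GCLM, a subunit of the enzyme that starts glutathione synthesis, went the other way in AML1-ETO cells, from 7.24 to 1.83 FPKM, at a log2 change of -1.98. HMOX1, often counted in the same response, was at -0.26 in that line.

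Among 6 tested genes known to respond to iron starvation or low oxygen, 1, 2 and 1 were past 2-fold at 48 h in the empty vector, AML1-ETO and ETO2-GLIS2 lines. The shares of all tested genes past 2-fold in these lines were 10.7%, 28.4% and 13.1%. VEGFA, the endothelial growth factor, was at 1.71, 0.86 and 2.23 in the empty vector, AML1-ETO and ETO2-GLIS2 lines at 48 h. NDRG1 went from 14.8 to 6.32 FPKM in AML1-ETO cells, a log2 change of -1.22, and was at 0.59 and 0.28 in the empty vector and ETO2-GLIS2 lines. TXNIP went from 30.7 to 98.5 FPKM in AML1-ETO cells, a log2 change of 1.68, beside 0.14 and 0.50 in the empty vector and ETO2-GLIS2 lines. TFRC, which is on this list too, was above 0 in all 3 lines, so in AML1-ETO cells TFRC and NDRG1 lay on opposite sides of 0.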
